A study of Homo sapiens with 10 samples.

Results

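The carnitine shuttle genes encode the proteins that bring long-chain fatty acids into mitochondria for oxidation, and their RNA was measured in the human prostate cancer cell line PC3 with and without an agonist of the Liver X Receptors (LXRs). The group was made of 8 of the 62656 genes in the deposited table, taken by their names as carnitine acyltransferases and carnitine carriers: *CPT1A*, *CPT1B*, *CPT1C*, *CPT2*, *SLC25A20*, *SLC22A5*, *CRAT* and *CROT*. It was chosen on the difference between GW3965 and DMSO that *CPT1A* and *SLC25A20* show in these same libraries. Their differences are therefore given as a description, and a count of members past a threshold is part of that description and supports nothing.

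PC3 is a line established from a bone metastasis, and all results are for this one line. The cells were starved overnight and then kept for 24 h in RPMI-1640 with glutamine, with either 1 µM of GW3965, a synthetic LXR ligand, or the vehicle DMSO alone, so both groups share the line, the starvation and the medium. There were 5 libraries per group, named by the group and replicate number in their titles. Nothing in the labels says that the 5 came from separate cultures, so the spread between them may be technical.

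A fatty acid is first joined to coenzyme A and cannot cross the inner mitochondrial membrane in that form. Carnitine palmitoyltransferase 1 (CPT1), on the outer membrane, moves the acyl chain to carnitine, the carrier SLC25A20 exchanges the acylcarnitine for free carnitine across the inner membrane, and CPT2 moves the chain back to coenzyme A in the matrix. Malonyl-CoA, the first committed intermediate of fatty acid synthesis, inhibits CPT1. LXRs are nuclear receptors activated by oxysterols, which bind DNA as partners of RXR and are known for switching on cholesterol efflux and fatty acid synthesis, while genes of the shuttle are well-known targets of another RXR partner, the PPAR receptors.

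Values are RPKM, reads per kilobase of gene, which the authors scaled between libraries. The reads behind them were recovered from the steps in the values, and the libraries held from 30429384 to 41636379 reads. The fit took the 20402 genes whose mean over the libraries reached 0.5 RPKM, and 32 of them (0.157%) passed the threshold of an adjusted p of 0.05 by limma on log2(RPKM + 0.1), 30 of them higher with GW3965 (0.147%) and 2 lower (0.0098%). The 4 LXR target genes taken as a check of the labels, *ABCA1*, *ABCG1*, *SREBF1* and *MYLIP*, were all higher with GW3965 and past the threshold, with log2 fold changes of 2.29, 2.13, 0.74 and 0.74. DMSO library 1 and GW3965 libraries 1 and 2 stood apart on the first principal component of the recovered reads, with scores of 8.08 to 9.90, while the others ran from −10.1 to 2.62, and 7SL RNAs took between 12.0 and 23.2% of the reads of a library. The medians of the keratins *KRT8*, *KRT18* and *KRT19* lay between 37.3 and 148.0 RPKM, while the epithelial cadherin *CDH1* had a median of 0.221 RPKM. The prostate marker *KLK3* was at 0 in all 10 libraries and *KLK2* in 8 of them. In bulk RNA, a change in the number of cells that express a gene and a change in the RNA of each cell cannot be told apart.

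Of the 8 shuttle genes, *CPT1A* and *SLC25A20* were higher with GW3965 in every library than in any DMSO library, by 1.45 and 1.56 times, and the ranges of the other 6 overlapped between the groups. Among all tested genes, 376 (1.84%) did not overlap between the groups. A mean under 0.5 RPKM left *CPT1B* out of the fit, so 7 members were tested. Of these 7, the fit put *CPT1A* and *SLC25A20* past the threshold, both higher, beside 0.147% of all tested genes, and since these genes led to the choice of the group, nothing is read from that share. The count was 1 without DMSO library 3 or without GW3965 library 2, 3 or 4. It was 0 without the 3 libraries that stood apart, and 0 with the replicate number as a block. The median log2 fold change of the 7 was 0.03, against 0.00 over all tested genes. Of the 7, 5 had a value above 0, against 51.1% of all tested genes. Both figures include *CPT1A* and *SLC25A20*, which led to the choice, so nothing is read from either figure.

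**Figure D1:**
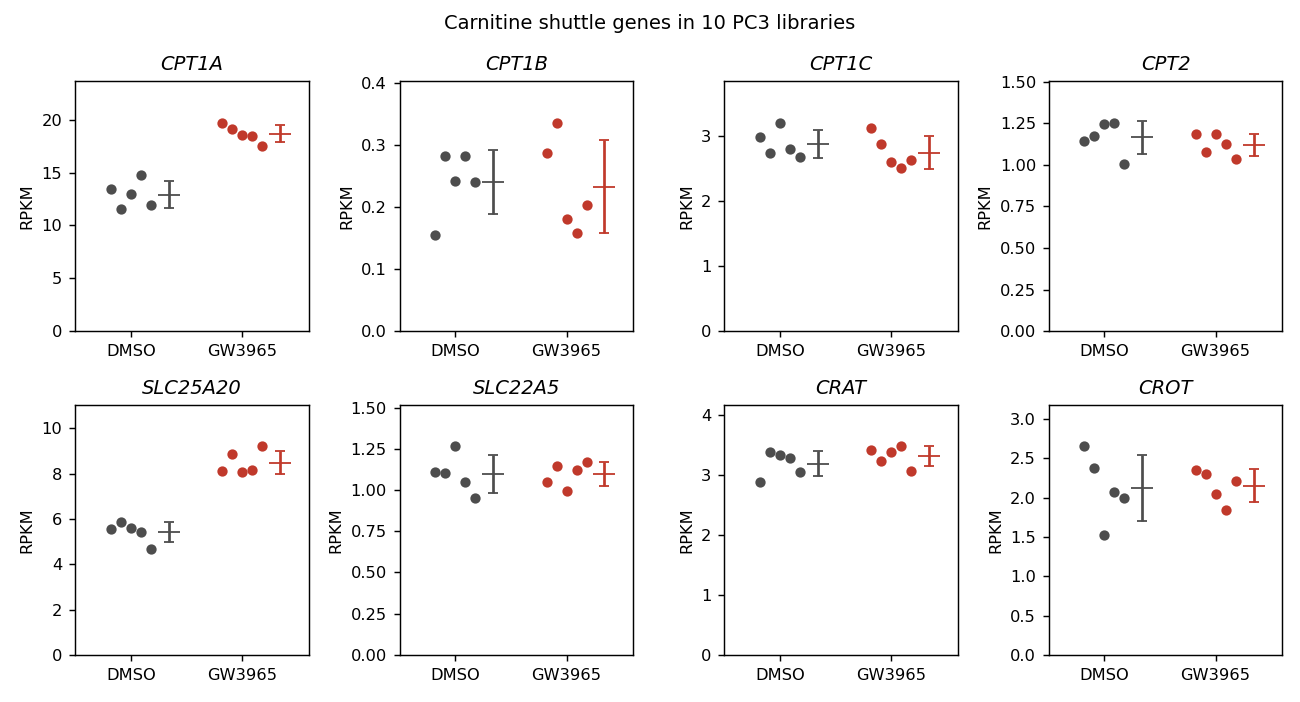
RPKM of the 8 carnitine shuttle genes (vertical axes, each starting at 0 with its own scale) in the 5 DMSO and 5 GW3965 libraries, ordered by replicate number; dots are libraries and the bar beside them is the mean with 1 SD. The GW3965 dots of CPT1A (17.5 to 19.7 RPKM) and SLC25A20 (8.07 to 9.20 RPKM) lie above all DMSO dots, and the groups overlap in the other 6 panels.

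The first step of the shuttle is encoded by 3 genes. *CPT1A*, the form best known from liver and the most widely expressed, lies on the minus strand at chr11:68754620-68844410 (GENCODE 29, GRCh38). In DMSO libraries 1 to 5 it had 13.4, 11.5, 12.9, 14.8 and 11.9 RPKM, and in GW3965 libraries 1 to 5 it had 19.7, 19.1, 18.5, 18.4 and 17.5 RPKM. The lowest GW3965 library thus lay above the highest DMSO library, and the 5 GW3965 values lay closer together than the 5 DMSO values. The means were 12.9 ± 1.29 and 18.6 ± 0.812 RPKM (SD, n = 5 each), which gave a log2 fold change of 0.53 (SE 0.07) with a 95% interval of 0.38 to 0.69. The counts behind it were large, with 15057 reads in the DMSO group and 22039 in the GW3965 group, and the spread between DMSO libraries, 9.95% of the mean, exceeded the 1.83% that counting alone would give. By fold change it ranked 442nd of the tested genes. The log2 fold change was 0.51 without the 3 libraries that stood apart and 0.54 with the 7SL share as a covariate.

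*CPT1B*, the muscle form, lies on the minus strand at chr22:50568861-50578465 and was close to the limit of what these libraries could measure. Its DMSO libraries had 0.155, 0.282, 0.242, 0.282 and 0.241 RPKM and its GW3965 libraries 0.287, 0.335, 0.180, 0.158 and 0.203 RPKM. These rest on 22 to 55 reads per library, and the groups overlapped over most of their range, with means of 0.240 ± 0.0516 and 0.233 ± 0.0752 RPKM (SD, n = 5 each). The gene shares 2722 of its 4102 exon bases (66.4%) with the readthrough gene *CHKB-CPT1B* on the same strand, and 94.1% of the 50-base windows of its principal transcript also occur there, so the division of reads between them is uncertain. *CHKB-CPT1B* itself had 67 reads in the DMSO group and 84 in the GW3965 group.

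*CPT1C*, the form known from neurons, whose protein sits in the endoplasmic reticulum and has little activity as an acyltransferase, lies on the plus strand at chr19:49690898-49713731. It had 2.99, 2.74, 3.21, 2.80 and 2.68 RPKM in the DMSO libraries and 3.12, 2.88, 2.61, 2.50 and 2.63 RPKM in the GW3965 libraries. Of the GW3965 values, 3 lay below the lowest DMSO value and the other 2 lay within the DMSO range. The means of 2.88 ± 0.214 and 2.75 ± 0.249 RPKM (SD, n = 5 each) gave a log2 fold change of −0.07 (SE 0.08), with an interval of −0.24 to 0.10 that holds 0.

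Within the CPT1 genes, the share of *CPT1A* in the summed RPKM was 79.0 to 82.8% in the DMSO libraries and 85.3 to 87.4% in the GW3965 libraries. The mean share was 80.4 ± 1.52% and 86.2 ± 0.886% (SD, n = 5 each). *CPT1A* therefore made up most of the CPT1 RNA in both groups. The ratio of *CPT1A* to *CPT1C* was 4.49 ± 0.478 in the DMSO and 6.82 ± 0.411 in the GW3965 libraries. These sizes rest on the authors' gene lengths. With the principal transcripts, a choice made after seeing the data, the mean share was 72.3 ± 1.96% in the DMSO and 79.9 ± 1.14% in the GW3965 libraries. The ratio to *CPT1C* was then 2.80 ± 0.298 and 4.25 ± 0.256 (SD, n = 5 each). *CPT1A* was chosen on its difference between these groups, so nothing is read from how the share and the ratio differ between them.

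*SLC25A20*, the carnitine-acylcarnitine translocase of the inner membrane, lies on the minus strand at chr3:48856931-48898993. It had 5.57, 5.87, 5.62, 5.41 and 4.68 RPKM in the DMSO libraries and 8.13, 8.88, 8.07, 8.17 and 9.20 RPKM in the GW3965 libraries. Again all GW3965 libraries were above all DMSO libraries, and the 2 extreme values came from the libraries numbered 5. Its means were 5.43 ± 0.449 and 8.49 ± 0.517 RPKM (SD, n = 5 each), with a log2 fold change of 0.64 (SE 0.07) and an interval of 0.48 to 0.79. The gene had 1839 reads in the DMSO group and 2894 in the GW3965 group, and no 50-base window of its principal transcript occurs in another annotated gene. Without the 3 libraries that stood apart, its log2 fold change was 0.65.

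*CPT2*, the acyltransferase of the matrix side, lies on the plus strand at chr1:53196429-53214197. Its values were 1.14, 1.17, 1.24, 1.25 and 1.01 RPKM in the DMSO libraries and 1.18, 1.08, 1.19, 1.12 and 1.03 RPKM in the GW3965 libraries. All GW3965 values lay within the DMSO range. The log2 fold change was −0.05 (SE 0.09), with an interval of −0.25 to 0.16, which holds 0. The antisense gene *AL606760.2*, with 10 reads in the DMSO and 4 in the GW3965 group, covers 1151 of the exon bases of *CPT2*, and *C1orf123* on the other strand covers 99. Whether the authors counted by strand is not given in the sources used here.

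The 3 steps of the shuttle thus differed in how their RNA stood against each other in the 2 groups. The ratio of *CPT1A* to *CPT2* was 9.83 to 11.8 in the DMSO libraries and 15.6 to 17.7 in the GW3965 libraries, with means of 11.1 ± 0.938 and 16.7 ± 0.747 (SD, n = 5 each). The ratio of *SLC25A20* to *CPT2* was 4.67 ± 0.271 and 7.62 ± 0.916. Neither ratio overlapped between the groups, but *CPT1A* and *SLC25A20* were chosen on this same difference, so nothing is read from it. The size of each ratio rests on the authors' gene lengths. With the principal transcripts, a choice made after seeing the data, *CPT1A* to *CPT2* was 4.28 ± 0.361 and 6.42 ± 0.288. *SLC25A20* to *CPT2* was then 1.45 ± 0.0841 and 2.36 ± 0.284 (SD, n = 5 each). A change of length scales all libraries alike, so it cannot change whether a ratio overlaps between the groups. The ratio of *CPT1A* to *SLC25A20* overlapped, at 2.39 ± 0.285 in the DMSO and 2.20 ± 0.195 in the GW3965 libraries. Both genes of this ratio were chosen on being higher with GW3965, so nothing is read from its overlap either.

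**Figure D2:**
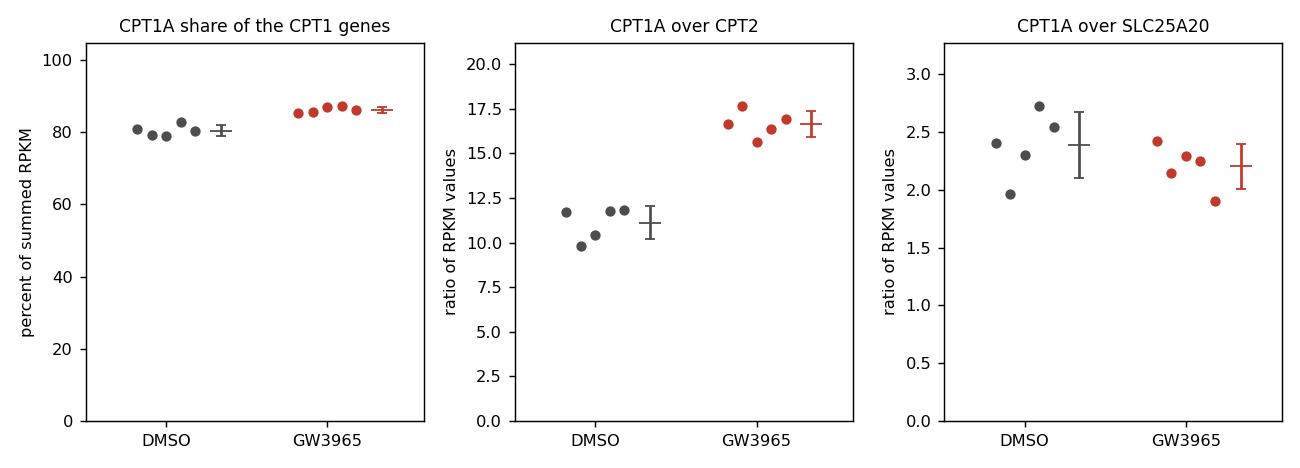
Share of CPT1A in the summed RPKM of the 3 CPT1 genes (left, percent), ratio of CPT1A to CPT2 (middle) and ratio of CPT1A to SLC25A20 (right) in each library; dots are libraries ordered by replicate number and the bar is the mean with 1 SD. The first 2 measures do not overlap between DMSO and GW3965 (for CPT1A over CPT2, at most 11.8 against at least 15.6), and CPT1A over SLC25A20 does. CPT1A and SLC25A20 were chosen on their difference between these groups.

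The carnitine that the shuttle needs enters the cell through *SLC22A5* (OCTN2), the high-affinity, sodium-dependent carnitine transporter of the plasma membrane, on the plus strand at chr5:132369752-132395614. It had 1.11, 1.10, 1.26, 1.05 and 0.951 RPKM in the DMSO libraries and 1.05, 1.15, 0.997, 1.12 and 1.17 RPKM in the GW3965 libraries. The GW3965 range lay inside the DMSO range. Both means were 1.10 RPKM (SD 0.114 and 0.0730, n = 5 each), and the log2 fold change was 0.00 (SE 0.10), with an interval of −0.22 to 0.22.

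The other 2 acyltransferases work on shorter chains. *CRAT*, carnitine acetyltransferase, which moves acetyl groups between coenzyme A and carnitine, lies on the minus strand at chr9:129094810-129111189. It had 2.89, 3.39, 3.34, 3.29 and 3.05 RPKM in the DMSO libraries and 3.42, 3.24, 3.38, 3.48 and 3.06 RPKM in the GW3965 libraries. Although 2 GW3965 values lay above the highest DMSO value, the ranges overlapped, and the log2 fold change was 0.05 (SE 0.07), with an interval of −0.09 to 0.20. *CROT*, the peroxisomal carnitine octanoyltransferase, which prepares shortened chains for export to mitochondria, lies on the plus strand at chr7:87345681-87399795. Its DMSO libraries had 2.65, 2.38, 1.53, 2.07 and 1.99 RPKM and its GW3965 libraries 2.35, 2.30, 2.05, 1.84 and 2.21 RPKM. With a DMSO spread of 20.0% of the mean, against 5.16% from counting, it was the most variable of the 7 tested members in that group, and DMSO library 3 was its lowest. The log2 fold change was 0.03 (SE 0.13), with an interval of −0.26 to 0.33, and without DMSO library 3 its sign turned to −0.07.

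By level per length, the members fell in the order *CPT1A*, *SLC25A20*, *CRAT*, *CPT1C*, *CROT*, *CPT2*, *SLC22A5* and *CPT1B*, with DMSO medians of 12.9, 5.57, 3.29, 2.80, 2.07, 1.17, 1.10 and 0.242 RPKM. At the top, *CPT1A* lay above 83.5% of the tested genes by its DMSO level and *SLC25A20* above 65.4%, while *SLC22A5* lay above 24.1%. Neighbours in this order had separate DMSO ranges except for *CRAT* and *CPT1C*, where *CRAT* was higher in 9 of 10 libraries of both groups, and *CPT2* and *SLC22A5*, where *CPT2* was higher in 7 of 10. The order between its ends rests on the gene length used. The authors' values correspond to 18390 bases for *SLC22A5* and 10089 for *CPT2*, where the principal transcripts of GENCODE 29 have 3237 and 3094 bases, and to 7565 bases for *CRAT*, where it has 2763. With the length of the principal transcript, *CRAT* had a DMSO median of 8.995 RPKM and followed *CPT1A*, and *SLC22A5* had 6.26 RPKM and came next, before *CPT1C* with 5.63 and *SLC25A20* with 5.63 RPKM, and *CPT1A* with 16.3 and *CPT1B* with 0.372 RPKM kept the ends. A change of length cancels within a gene, so it does not touch the differences between the groups.

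**Figure D3:**
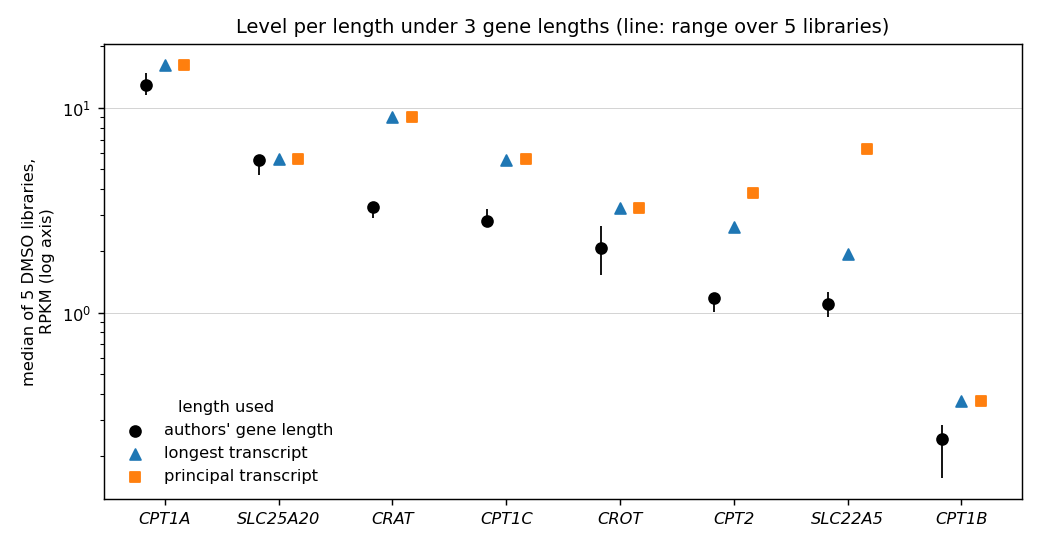
DMSO median of each member in RPKM on a log axis, with the authors' gene length (circles, the line spanning the 5 DMSO libraries), the longest transcript (triangles) and the principal transcript (squares) of GENCODE 29. CPT1A is highest and CPT1B lowest with all 3 lengths, and SLC22A5 moves from 1.10 to 6.26 RPKM.

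*SLC25A20* and *SLC22A5* both carry carnitine, one across the inner mitochondrial and one across the plasma membrane, and the groups were apart in the first and overlapped in the second. The sequence in front of each is shown so that these promoters can be read side by side (RefSeq, GRCh38.p14, gene strand, 5′ to 3′, capitals for the GC box GGGCGG or its reverse complement). That of *SLC25A20* is chr3:48898994-48899132 on the minus strand, the part of the RefSeq window that lies before the annotated starts of both RefSeq and GENCODE, and that of *SLC22A5* is chr5:132369460-132369709 on the plus strand.
SLC25A20: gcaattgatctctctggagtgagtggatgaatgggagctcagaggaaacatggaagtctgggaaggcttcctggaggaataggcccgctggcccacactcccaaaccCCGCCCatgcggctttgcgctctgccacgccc
SLC22A5: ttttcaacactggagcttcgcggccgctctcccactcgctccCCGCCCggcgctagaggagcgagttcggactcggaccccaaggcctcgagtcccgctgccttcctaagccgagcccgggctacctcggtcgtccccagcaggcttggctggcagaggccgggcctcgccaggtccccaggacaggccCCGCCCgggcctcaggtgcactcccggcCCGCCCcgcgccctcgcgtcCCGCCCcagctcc

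The GC box stands 1 time in the 139 bases shown for *SLC25A20* and 4 times in the 250 bases shown for *SLC22A5*, and the lengths differ because 111 bases past the GENCODE start were left off for *SLC25A20*. Its full window of 250 bases holds 3. Over both strands it was present in 6 of the 8 windows of 250 bases that RefSeq starts of 6 members gave (*CPT1C* has 3), and in 42.6% of 35116 human promoter windows of the same length. The element AGGTCA, which nuclear receptors bind, was in none of the 8 windows and in 12.1% of all. Its repeats AGGTCANAGGTCA, the layout known for PPAR with RXR, and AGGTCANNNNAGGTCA, that known for LXR with RXR (N is any base), were in none of the 8, and in 0.0171 and 0.0142% of all windows. Both repeats contain AGGTCA, so these counts are not independent, and only these exact letters were searched. For *CPT1A* the window lies 2361 bases upstream of the start of its principal transcript, so it is not shown. A window of *CPT1C* and that of *CPT2* lie wholly past the start of the principal transcript. The 8 windows thus do not all lie directly in front of such a start. *CPT1B* and *CRAT* had no entry.

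Across the libraries, *CPT1A* and *SLC25A20* were alike between the groups but not within them. Their log2 values had a Pearson r of 0.90 over the 10 libraries, which share the difference between groups, and of −0.04 over the deviations from the group means. Over these deviations, the 28 pairs of members ranged from −0.48 for *CRAT* with *CROT* to 0.78 for *SLC25A20* with *SLC22A5*, and *CPT1A* had 0.59 with *CPT2*. With 10 libraries these are descriptions, given without a test.

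Among the tested genes most like *CPT1A* over the 10 libraries were *SCD*, a fatty acid desaturase, its pseudogene *SCDP1*, *FADS2*, another desaturase, and *SHISA3*, a gene of the Shisa family, with r of 0.973 to 0.982. Over the deviations from group means, which are part of the r they were picked by, they had 0.778 to 0.841. Reads of *SCD* and *SCDP1* may be shared between them, so the value of *SCDP1* is uncertain. Most like *SLC25A20* were *NOG*, which encodes the BMP antagonist noggin, the transcription factor gene *KLF4*, the autophagy receptor gene *OPTN*, the netrin gene *NTN4* and *ETFA*, with r of 0.970 to 0.989 and of 0.555 to 0.880 over the deviations. *ETFA* encodes a subunit of the flavoprotein that takes electrons from the acyl-CoA dehydrogenases of β-oxidation. No gene was named for both members, and *SLC25A20* came 57th in likeness to *CPT1A*.

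**Figure D4:**
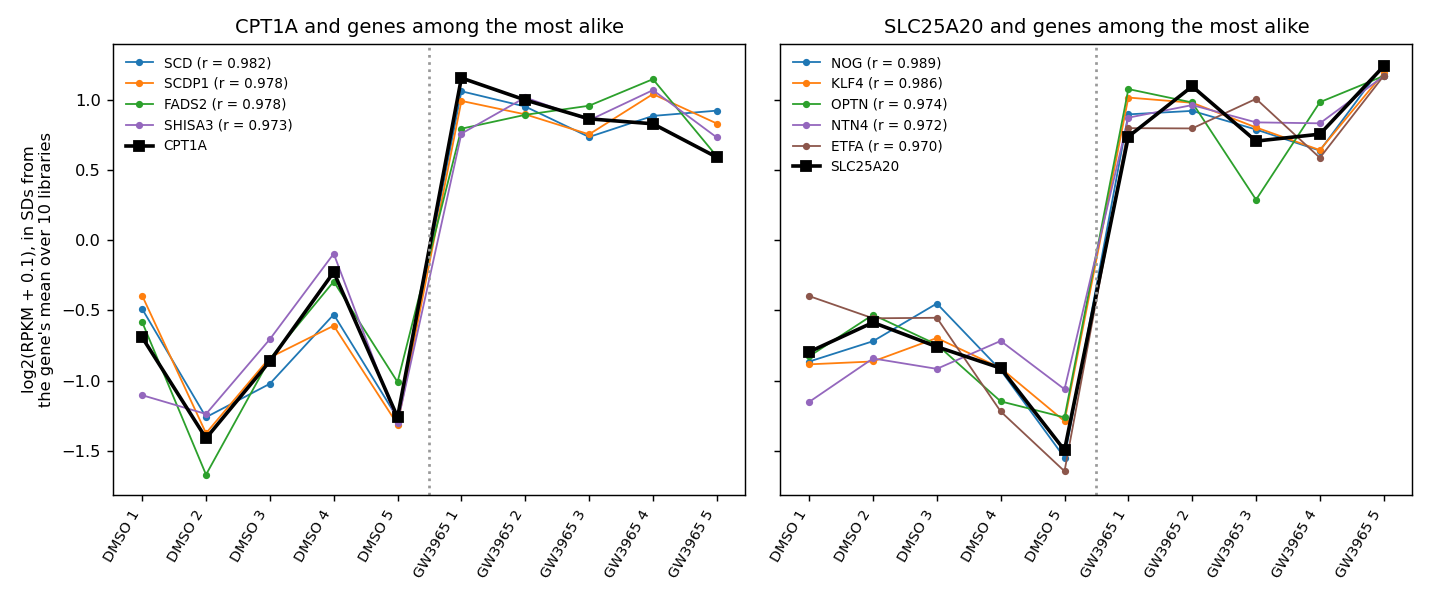
Level of CPT1A (left) and SLC25A20 (right, black squares) in each library with genes among those most alike, as log2(RPKM + 0.1) in SDs from each gene's mean over the 10 libraries; the dotted line divides the groups. CPT1A and the genes beside it have their highest DMSO value in library 4 or 1, SLC25A20 and the genes beside it have their lowest DMSO value in library 5 or 1, and r is given in the legend.

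Around the shuttle, 7 lists of 65 genes of carnitine supply and fatty acid oxidation were followed, and 50 of them were tested. Only *ACSL3*, which encodes an acyl-CoA synthetase that loads long-chain fatty acids onto coenzyme A, passed the threshold. It rose from 10.9 ± 1.29 to 18.9 ± 0.702 RPKM (SD, n = 5 each), with a log2 fold change of 0.80 (SE 0.08, limma adjusted p = 0.0016), and 8 genes of the lists did not overlap between the groups, beside the 1.84% of all tested genes. Of the 50, 32 had a value above 0 and the median log2 fold change was 0.05, beside 0.00 and 51.1% above 0 for all tested genes. At an unadjusted p under 0.05 by limma there were 13 of the 50, and 1427 of all 20402 tested genes. The lists were written with earlier results of these data known.

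Upstream of CPT1, all 3 tested long-chain acyl-CoA synthetases had values above 0, from 0.32 for *ACSL1* to 0.80 for *ACSL3*, with a median of 0.37, and 2 of the 3 did not pass the threshold. The list on control of CPT1 by malonyl-CoA had 7 tested genes, 5 of them above 0 and none past the threshold, with a median of 0.14 and a range from −0.02 for *PRKAB1* to 0.34 for *PRKAB2*, which encode subunits of the kinase AMPK. At an unadjusted p under 0.05 by limma this list had 2 genes, and voom on the recovered reads put *ACACA*, the acetyl-CoA carboxylase that makes malonyl-CoA in the cytosol, past the threshold. Supply and synthesis of carnitine had 4 tested genes of 8, none past the threshold, from −0.02 for the mitochondrial carrier *SLC25A29* to 0.20 for the carnitine efflux transporter *SLC16A9*, with 1 gene at an unadjusted p under 0.05 by limma and 0 past the threshold by voom.

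Downstream of CPT2, none of the 15 tested genes of mitochondrial β-oxidation passed the threshold, 13 had values above 0 and the median was 0.07. They lay between −0.08 for *ECHS1*, an enoyl-CoA hydratase, and 0.25 for *ECI2*, an enoyl-CoA isomerase. Of the 9 tested genes of peroxisomal β-oxidation none passed either, with 6 above 0, a median of 0.05, and ends at −0.06 for the oxidase *ACOX2* and 0.25 for the bifunctional enzyme *EHHADH*. Of the 15 and 9 genes, 3 and 0 had groups that did not overlap, against 1.84% of all tested genes. The unadjusted p by limma lay under 0.05 for 4 and 1 of them, and 0 of either list passed by voom.

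The 6 tested genes of PPAR receptors, their RXR partners and coactivators all had values below 0, from −0.12 for *PPARD* to −0.02 for *PPARA*, with a median of −0.06, and none passed the threshold by limma or by voom, or had an unadjusted p under 0.05 by limma. Other known PPAR target genes had a median of −0.01 over 6 tested genes, and ran from −0.16 for *FABP3*, a fatty acid binding protein, to 1.06 for *PDK4*. The latter encodes a kinase that holds back pyruvate dehydrogenase. *PDK4* had 0.830 ± 0.256 RPKM in the DMSO and 1.81 ± 0.330 RPKM in the GW3965 libraries (SD, n = 5 each) and its groups did not overlap, but with an adjusted p of 0.0649 by limma it did not pass. It was past the threshold in 3 alternatives, without DMSO library 1 (adjusted p by limma 0.0109), with voom (adjusted p 0.0140) and with quantile normalization (limma adjusted p 0.0351), and over all alternatives the adjusted p ran from 0.0109 to 0.184. *PLIN2*, a lipid droplet coat protein gene named after its values were seen, had 4.01 ± 0.413 and 5.72 ± 0.544 RPKM (SD, n = 5 each), a log2 fold change of 0.50 and an adjusted p of 0.0706 by limma. *PDK4* and *PLIN2* were the 2 genes of this list whose groups did not overlap, the 2 with an unadjusted p under 0.05 by limma, and the 2 past the threshold by voom.

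**Figure D5:**
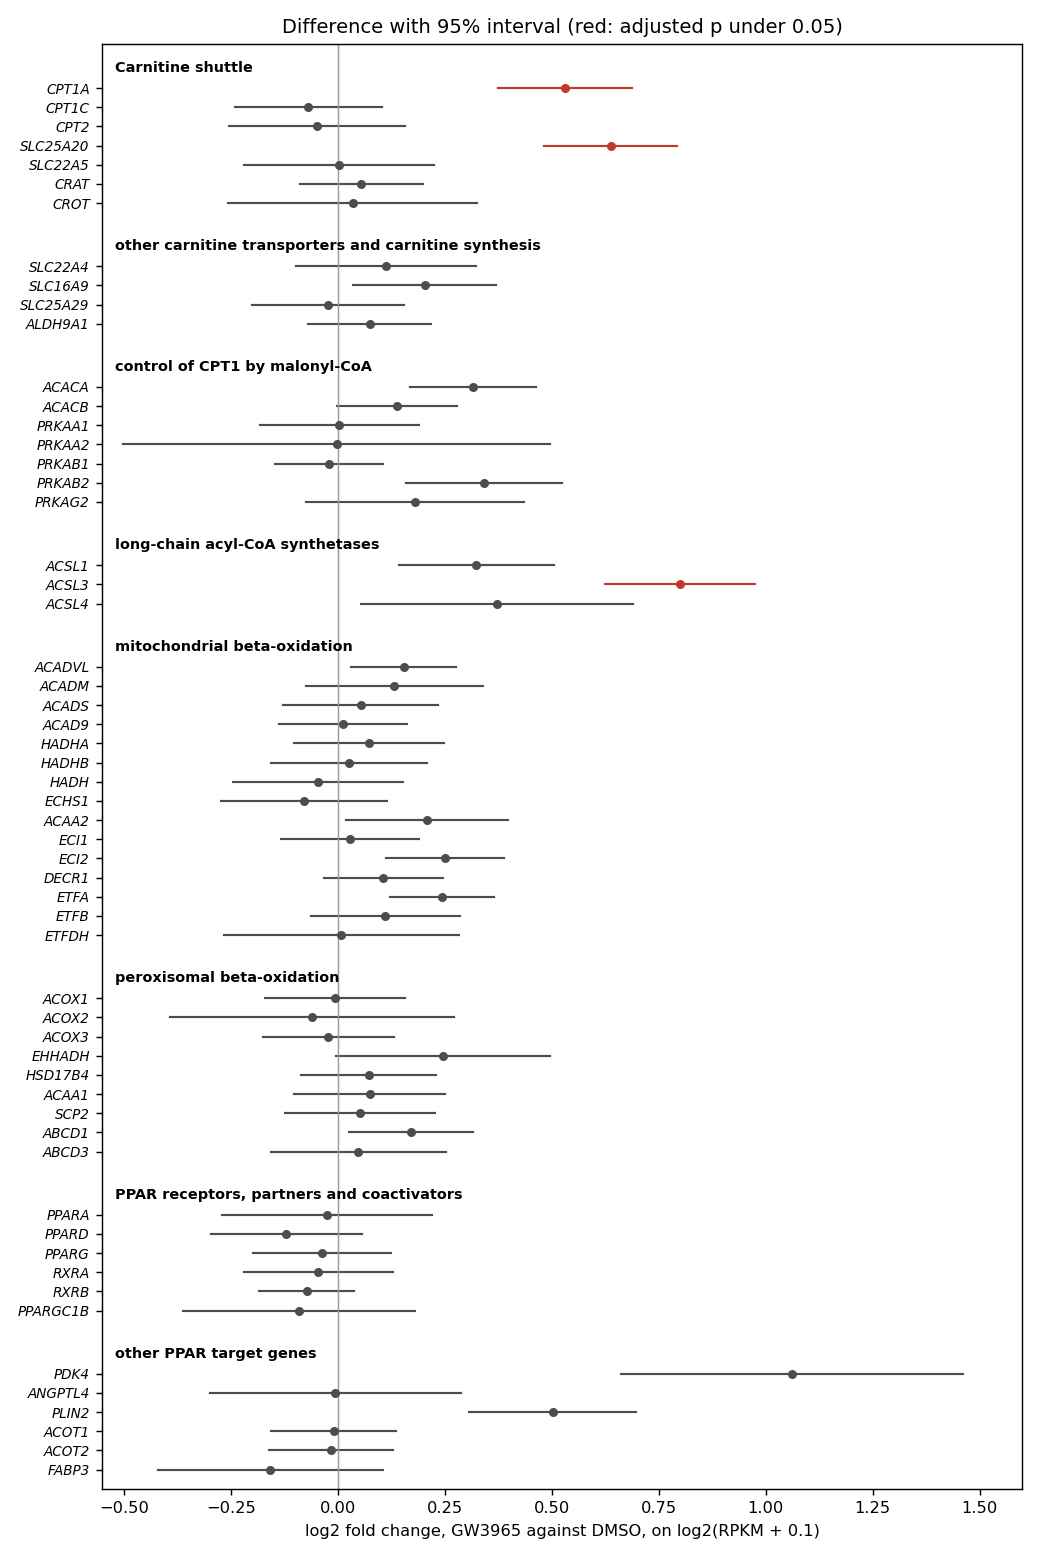
Difference between GW3965 and DMSO (log2 fold change on log2(RPKM + 0.1), horizontal axis) with its 95% interval for the 7 tested carnitine shuttle genes and the 50 tested genes of the 7 lists around them, grouped by list; red marks an adjusted p under 0.05. CPT1A (0.53), SLC25A20 (0.64) and ACSL3 (0.80) are red, and the 6 genes of the PPAR receptor list lie left of 0 with intervals that cross it.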

How the data were processed

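Bulk RNA of PC3 cells was measured in 10 libraries, 5 per group, assigned by the sample titles, and all columns of the table were mapped. The methods describe stranded libraries of total RNA depleted of ribosomal RNA, although the labels name polyA RNA. The submitters' processing notes name HISAT2 2.1.0, HTSeq 0.11.2, DESeq2 1.22.2 and hg38, while the paper's methods name a mouse genome. All gene identifiers are human, and the annotation release is not given in the sources used here. The authors deposited RPKM values for 62656 genes, 15119 of which were 0 in all libraries.

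From these values, whole reads were recovered for 99.9842% of values above 0 (tolerance 0.0001 reads). The spread that counting alone would give was taken from these reads and covers counting error only, and reads carry no molecular identifiers. No libraries were near-identical. Groups were compared with limma 3.58.1 (R 4.3.3), using lmFit and eBayes with a trend, two-sided, on log2(RPKM + 0.1). Genes had to reach a mean of 0.5 RPKM, which left 20402, and p-values were adjusted over these by the Benjamini-Hochberg method. This scale understates fold changes of low genes. Intervals of differences are 95% intervals of the same fit. The procedure was also run on simulated reads, drawn for each gene separately. These lack the shared deviation of the 3 libraries that stood apart, and nothing is concluded from them here.

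Gene positions, transcripts and overlaps came from GENCODE 29 and promoters from RefSeq, of which 6 of 8 members had an entry. Genes were named by a rule: the 8 members, the genes of each list past the threshold or at either end of it, the check genes, the 5 genes with the highest r to *CPT1A* and to *SLC25A20*, and genes that overlap a member. 1 result under this rule was left out of the text. The members and lists were chosen with earlier results of these data known. Alternatives were pseudocounts of 1 and 0.01 RPKM, no filter or a mean of 1 RPKM, quantile normalization, upper-quartile scaling, the replicate number as a block, no trend, voom on the recovered reads, leaving out each library and, for levels, the longest transcript. Chosen after seeing the data were the loss of DMSO library 1 with GW3965 libraries 1 and 2, the 7SL share as a covariate and the principal transcript.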

Additional observations from a re-analysis of the deposited data

How the results depend on the processing

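The number of genes past the threshold, 32, was 21 without a filter, 20 without a trend, 65 with voom, 18 without the 3 libraries that stood apart, 21 with a covariate for the 7SL share and 17 to 38 when single libraries were left out (17 for the loss of GW3965 library 2 or 4, 18 for DMSO library 3, 19 for GW3965 library 3, 21 for GW3965 library 5). The number of carnitine shuttle genes past it, 2, was 0 without the 3 libraries, 1 with the 7SL covariate and 1 to 2 without single libraries. *CPT1A* kept a log2 fold change of 0.49 to 0.58 over all 21 alternatives (0.49 to 0.58 without single libraries). It lay outside the threshold at 0.51 without the 3 libraries, at 0.54 with the 7SL covariate, and at 0.52 to 0.54 without DMSO library 3 or GW3965 library 2, 3 or 4. *SLC25A20* lay outside at 0.65 without the 3 libraries, and had 0.59 to 0.67 without single libraries. The lists held 1 gene past the threshold, 2 with quantile normalization (*ACSL3* and *PDK4*), 4 with voom (with *PLIN2* and *ACACA*) and 1 to 2 without single libraries. *SREBF1* and *MYLIP* each fell outside the threshold under 2 alternatives.

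Same-numbered libraries did not deviate together (correlations of at most 0.16 in size, 1 of 5 closest to its own number). What the numbers stand for is not given, so a pairing was neither shown nor excluded. With the number as a replicate block, 16 genes and 0 shuttle genes passed. *CPT1A* was then at 0.53 and *SLC25A20* at 0.64, each with an adjusted p of 0.0625 by limma.

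Small differences changed sign. *SLC22A5* had −0.018 with upper-quartile scaling and with the 7SL covariate, and −0.042 to 0.052 without single libraries. *CROT* had −0.017 with the covariate and −0.072 to 0.117 without single libraries, and *ACOX2* had 0.0073 and −0.11 to 0.050. Without single libraries, *SLC25A29* ran from −0.094 to 0.015, *PRKAB1* from −0.035 to 0.022, and *PPARA* from −0.077 to 0.044. The difference of *CPT1B*, from so few reads, was −0.37 without the 3 libraries and −0.15 to 0.038 without single libraries.

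DMSO medians with the longest transcript were 16.3 (*CPT1A*), 0.372 (*CPT1B*), 5.56 (*CPT1C*), 2.61 (*CPT2*), 1.94 (*SLC22A5*), 8.995 (*CRAT*) and 3.25 RPKM (*CROT*). With the principal transcript, *CPT1C*, *CPT2* and *SLC22A5* had 5.63, 3.83 and 6.26 RPKM and the other 4 the same values. The cause was not tested for any call that changed.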
